A study of Mus musculus with 2 samples.

Results

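The Bcl2 family, the caspases and the death adaptors are the genes of programmed cell death, and 37 of them were followed here in granulocytes and monocytes from mouse bone marrow. The members were named by function and found as the non-control probes whose gene name in the array files was 1 of the 37 names, with Xiap under its older name Birc4. This gave 64 probes of 41174, which measured 35 genes by name out of 15236 named genes with a value. The names Bcl2a1a and Bcl2a1d stood on no probe, and both genes are listed, beside Bcl2a1b, on the probe that carries the Bcl2a1b name. Granulocytes and monocytes were both sorted from wild type male C57BL/6 mice, with 1 array for each cell type. The sources used here state neither the sort gates, nor the age of the mice, nor how many mice went into a sample. Without replicates nothing below is tested: differences are sizes, with no error between samples.

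Apoptosis through the mitochondrion is set by the balance within the Bcl2 family. Anti-apoptotic members hold the pore-forming effectors in check, BH3-only members release them, and the pore lets out cytochrome c, which assembles with Apaf1 and caspase 9 into the apoptosome. A separate route starts at death receptors such as Fas, whose adaptor Fadd recruits caspase 8, and the same proteins branch into necroptosis through the kinases Ripk1 and Ripk3. Mature neutrophils, the main granulocytes of bone marrow, are short-lived cells whose survival depends on Mcl1, while monocytes leave the marrow and can become longer-lived macrophages.

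Values are given as relative signal, the background-subtracted brightness of a probe divided by the 75th percentile of its array, and as log2 differences, granulocyte minus monocyte. The granulocyte array had its percentile at 339.4 and the monocyte array at 620.9, and the scaling sets where 0 lies: the median of all named genes was 0.45 with it and -0.42 without it. Of the 35 genes 22 were at least 2-fold apart, against 51.1% of all named genes, and 4 at least 4-fold apart, against 19.4% of all named genes. At least 2-fold higher in granulocytes were 12 of the 35 genes (34.3%), against 29.8% of all named genes, and 10 (28.6%) were at least 2-fold higher in monocytes, against 21.4% of all named genes. At 4-fold the counts were 1 (2.86%) for granulocytes, against 8.75% of all named genes, and 3 (8.57%) for monocytes, against 10.6%. Without scaling these 4-fold counts were 0 for granulocytes, against 3.72% of all named genes, and 9 (25.7%) for monocytes, against 19.3%. The median of the 35 genes was 0.40, against 0.45 for all named genes. The split of the 2-fold calls, 12 for granulocytes and 10 for monocytes, depended on the scaling. It was 2 and 13 without scaling, 5 and 12 with quantile normalisation, 7 and 9 with normexp background correction and 7 and 11 in the authors' deposited table. It was 3 and 12 when differences were centred on the median of all genes. Over all named genes the split of 4536 and 3256 became 1542 and 5508 without scaling, 3360 and 3726 with quantile normalisation and 2539 and 4335 with the centring. It became 3101 and 2456 with normexp correction and 3541 and 3667 in the authors' table. Toward monocytes the members' share was 37.1% without scaling, against 35.3% of all named genes, and 34.3% with quantile normalisation, against 24.3%. It was 25.7% with normexp correction, against 16.4%, and 31.4% in the authors' table, against 24%. With the centring it was 34.3%, against 28.5%.

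Some members were at least 2-fold apart under all 8 settings of scaling, background correction and mean over probes. The last leaves genes with 1 probe unchanged. Most settings moved differences toward monocytes, so passing all of them was harder toward granulocytes. Settings such as no scaling and the centring only subtract a constant. A gene at least 2-fold higher in monocytes passes those by construction. The median of all named genes was 0.45 with the scaling used, -0.42 without it, 0.21 with quantile normalisation and 0.26 in the authors' table. Only normexp correction raised it, to 0.53. The members that passed all 8 for granulocytes were Fas and Bcl2l1, 5.71% of the 35 genes, against 10.1% of all named genes. For monocytes they were Bcl2, Bax, Pmaip1, Casp6, Casp8, Cycs, Endog, Fadd and Ripk3, which is 9 genes or 25.7%, against 15.5% of all named genes. A group of 9 others, Bak1, Bad, Bid, Bmf, Casp1, Apaf1, Diablo, Xiap and Ripk1, changed sign with the setting and has no direction here.

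**Figure D1:**
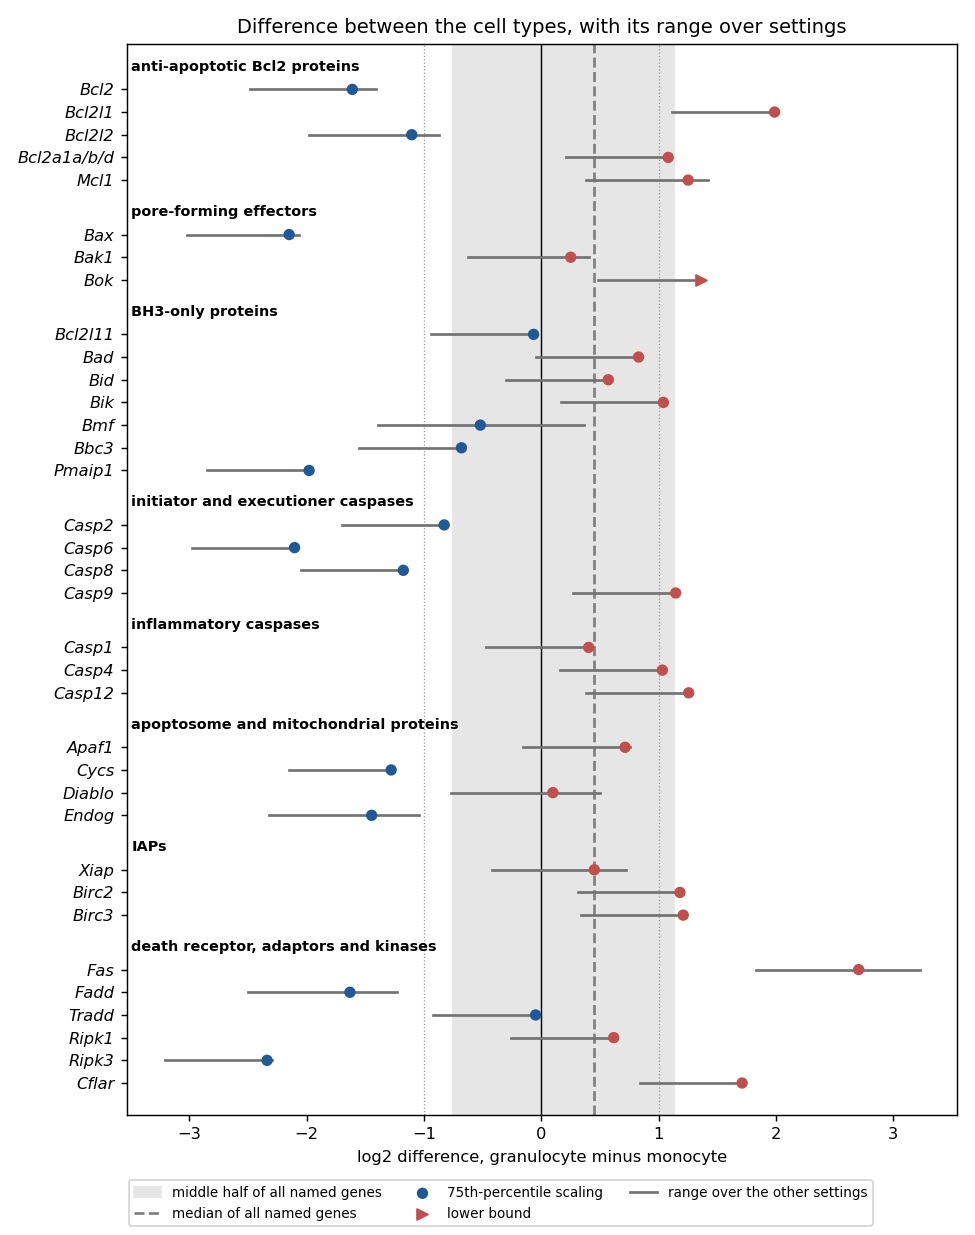
Log2 difference, granulocyte minus monocyte, of each member by role, with red points above 0, blue points below 0 and a triangle for a lower bound. Grey lines give the range over the other settings, the shaded band runs from the 25th to the 75th percentile of all named genes, the dashed line is their median at 0.45 and the dotted lines mark 2-fold. Fas lies farthest to the right at 2.70 and Ripk3 farthest to the left at -2.34.

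The labelled cell types showed their defining markers. All 7 granulocyte markers passed 2-fold toward granulocytes, with Mmp9, a granule protease, at 9.65 and Cxcr2, the neutrophil chemokine receptor, at 8.38. Without scaling, and with quantile normalisation, 4 of the 7 passed, and S100a8, S100a9 and Camp did not. All 6 monocyte markers passed 2-fold toward monocytes, with Ccr2 at -7.67 and Fn1 at -8.51. The summed relative signal of the granulocyte markers was 3339 in granulocytes and 1024 in monocytes. In monocytes S100a9 had 415, S100a8 191, Ltf 161, Camp 132 and Ngp 124, so these were bright there too. Cxcr2 and Mmp9 were dim in monocytes, at 0.142 and 0.365. The monocyte markers summed to 11.99 in granulocytes, where Csf1r alone had 10.6, and to 295.5 in monocytes. Markers of other marrow cells were unevenly spread. The NK-cell markers, of which 4 of 5 gave a value and Ncr1 did not, summed to 1.42 in granulocytes and 14.3 in monocytes, and Eomes was not well above background in granulocytes. The 3 plasmacytoid dendritic cell markers summed to 4.61 in granulocytes and 24.02 in monocytes, with Siglech not well above background in granulocytes. The 2 markers of cycling cells summed to 26.1 in granulocytes and 66.6 in monocytes, and the 2 progenitor markers to 1.87 in granulocytes and 5.69 in monocytes, with Cd34 at -3.51 and Kit at 1.35. In the other direction, the 5 erythroid markers summed to 218 in granulocytes and 63.5 in monocytes, and the 4 megakaryocyte markers to 3.13 in granulocytes and 1.02 in monocytes. Of the erythroid sums, Hbb-bt alone had 212 in granulocytes and 61.7 in monocytes. All 5 erythroid and all 4 megakaryocyte markers passed 2-fold toward granulocytes with the scaling used, and 0 and 1 of them without it. The 5 T-cell markers summed to 5.16 in granulocytes and 3.70 in monocytes, although Lck and Cd3g were at -3.98 and -3.44, and the 5 B-cell markers summed to 4.92 in granulocytes and 4.81 in monocytes. The part of these cells in the differences below was not tested. In bulk samples of this kind, fewer cells of a type and less RNA per cell cannot be told apart.

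Of the 5 anti-apoptotic genes measured, 3 passed 2-fold toward granulocytes, against 29.8% of all named genes, and 2 toward monocytes, against 21.4%. Without scaling Bcl2l1 alone passed toward granulocytes, 20% of the 5 genes against 9.88% of all named genes. Bcl2, the founding member, was lower in granulocytes and Bcl2l1, which encodes Bcl-xL, was higher, under every setting. Mcl1, whose short-lived protein neutrophils depend on, was 2.38-fold higher with the scaling used. Bcl2 had a relative signal of 0.618 in granulocytes and 1.89 in monocytes, a difference of -1.61 or 3.05-fold, by its brightest probe. A probe with repeated spots gave 0.232 in granulocytes and 0.844 in monocytes (-1.86), over 9 spots from 0.212 to 0.266 in granulocytes and from 0.815 to 0.9005 in monocytes. The remaining Bcl2 probe gave -1.85. Whether any of the Bcl2 probes reads 1 transcript variant alone was not tested. The brightest probe and the repeated one are shown, since they lie far apart in the locus and had the same direction:
Bcl2, brightest, A_51_P380013, mm8 chr1:108539940-108539999, minus strand: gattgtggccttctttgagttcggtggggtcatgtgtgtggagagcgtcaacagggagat
Bcl2, repeated, A_52_P534870, mm8 chr1:108365763-108365822, minus strand: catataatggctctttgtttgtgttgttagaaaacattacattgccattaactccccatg

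Bcl2l1 had a relative signal of 1.40 in granulocytes and 0.353 in monocytes, a difference of 1.99 or 3.97-fold, which placed it above 91.1% of all named genes. Its 10 spots ran from 1.29 to 1.49 in granulocytes and from 0.319 to 0.382 in monocytes. The other Bcl2l1 probes gave 1.97 and 1.62, so with the scaling used all 3 agreed in direction and in passing 2-fold. Without scaling every difference shifts by -0.87, which put the brightest Bcl2l1 probe at 1.12 and takes the one at 1.62 under 2-fold. The probe that carries these spots is:
Bcl2l1, A_52_P148861, mm8 chr2:152472336-152472395, minus strand: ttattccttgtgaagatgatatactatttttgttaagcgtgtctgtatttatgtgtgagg

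Mcl1 had a relative signal of 121 in granulocytes and 50.9 in monocytes, a difference of 1.25, and its other probe gave 90.4 in granulocytes and 29.98 in monocytes (1.59). Mcl1 was higher in granulocytes under every setting, but the size of its difference was 0.38 without scaling and 0.80 after centring on all genes. The brighter probe is:
Mcl1, A_51_P238786, mm8 chr3:95748337-95748396, plus strand: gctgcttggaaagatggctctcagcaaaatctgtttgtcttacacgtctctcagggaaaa

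Bcl2l2, which encodes Bcl-w, had 0.430 in granulocytes and 0.923 in monocytes, a difference of -1.10, or -0.87 after normexp correction. Its second probe was not well above background in granulocytes, where it was at least 1.52-fold lower than in monocytes.

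The A1 genes, NF-kappaB targets that protect activated myeloid cells, were read by 1 probe for 3 copies. It had a relative signal of 2.54 in granulocytes and 1.20 in monocytes, a difference of 1.08 that was 0.21 without scaling. RefSeq transcripts of Bcl2a1b, Bcl2a1d and Bcl2a1a are all listed for it, so the value cannot be assigned to any of them. In RefSeq promoter windows (GRCm38.p6) around the gene start, Bcl2a1a and Bcl2a1d matched at 288 of 306 aligned positions (94.1%, with 6 mismatches and 12 gap positions). With gap positions counted, identity was lower for Bcl2a1a and Bcl2a1b (73.8%, with 2 mismatches and 88 gap positions) and for Bcl2a1b and Bcl2a1d (70.6%, with 3 mismatches and 100 gap positions). The lower values come from the gaps, since mismatches were fewer than for Bcl2a1a and Bcl2a1d. The shared probe maps over 7862 bases of chromosome 9, longer than its 60 bases:
Bcl2a1a, Bcl2a1b and Bcl2a1d, A_51_P494241, mm8 chr9:88997625-89005486, plus strand: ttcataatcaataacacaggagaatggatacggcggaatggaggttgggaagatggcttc

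**Figure D2:**
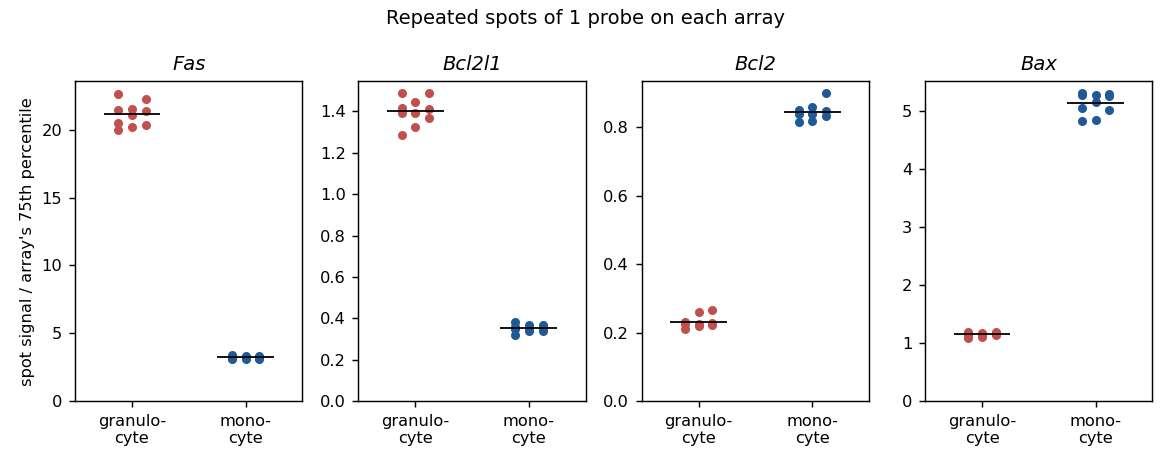
Relative signal of each repeated spot of the probes for Fas, Bcl2l1, Bcl2 and Bax, with granulocytes left and monocytes right in each panel and the mean as a line. Each panel has its own axis from 0. The spots show the noise within an array, not the spread between mice.

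Of the effectors that open the mitochondrial membrane, Bax was lower in granulocytes and Bak1 had no stable sign. The Bax probe had a relative signal of 1.16 in granulocytes and 5.13 in monocytes, a difference of -2.15 or 4.43-fold, below all but 9.4% of named genes. Over 10 spots each, its signal ran from 1.09 to 1.20 in granulocytes and from 4.83 to 5.31 in monocytes. The log2 SD of these spots was 0.05 in each cell type, which describes spotting and scanning only. Bak1 had 5.30 in granulocytes and 4.46 in monocytes, a difference of 0.25 that became -0.62 without scaling and -0.20 after centring, and its other probe gave 0.57. Bok, a relative of Bax and Bak1, was well above background in granulocytes only, at 0.0390, and not well above background in monocytes at 0.0149. It was therefore at least 2.56-fold higher in granulocytes, and the bound on the log2 scale was 0.49 without scaling. The Bax probe maps over 156 bases for its 60:
Bax, A_51_P254541, mm8 chr7:45334141-45334296, minus strand: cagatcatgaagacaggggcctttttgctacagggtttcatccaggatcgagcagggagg

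Of the 7 BH3-only genes, the sensors of stress and growth factor loss, Pmaip1 passed 2-fold toward monocytes, Bik passed it toward granulocytes with the scaling used, and 5 were within 2-fold. Each direction thus held 14.3% of the 7, against 29.8% of all named genes toward granulocytes and 21.4% toward monocytes. Without scaling the counts were 0 toward granulocytes, against 9.88% of all named genes, and 3 (42.9%) toward monocytes, against 35.3%. Pmaip1, which encodes Noxa, an antagonist of Mcl1, had a relative signal of 4.89 in granulocytes and 19.3 in monocytes, a difference of -1.98 or 3.94-fold. Bbc3, which encodes Puma, had 5.39 in granulocytes and 8.63 in monocytes (-0.68, and -1.13 after centring). Bcl2l11, which encodes Bim, a main driver of leukocyte death, had 1.96 in granulocytes and 2.05 in monocytes, a difference of -0.07, with -0.16 and -0.68 by its other probes. Bid, which links death receptors to the mitochondrion, had 8.13 in granulocytes and 5.47 in monocytes (0.57, and -0.30 without scaling). Bik was dim on both arrays, at 0.0475 in granulocytes and 0.0231 in monocytes (1.04, and 0.17 without scaling).

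Bmf and Bad were the only members whose probes pointed opposite ways with the scaling used. Bmf, a sensor tied to the cytoskeleton, gave 2.11 in granulocytes and 3.03 in monocytes by its brightest probe (-0.52), and 0.229 in granulocytes and 0.0996 in monocytes by another (1.20), with 0.41 by the remaining one. For Bad, which responds to growth factor signals, the brighter probe gave 0.286 in granulocytes and 0.161 in monocytes (0.83). The probe made for the Bad RefSeq mRNA gave 0.0540 in granulocytes and 0.0727 in monocytes (-0.43). The Bad probes map to opposite strands, so they cannot both read the same transcript, and no direction is given for either gene. These probes are shown because the reading depends on which is used:
Bmf, brightest, A_52_P384394, mm8 chr2:118220224-118220283, minus strand: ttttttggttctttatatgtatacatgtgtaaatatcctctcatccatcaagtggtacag
Bmf, opposite sign, A_51_P482239, mm8 chr2:118224017-118224076, minus strand: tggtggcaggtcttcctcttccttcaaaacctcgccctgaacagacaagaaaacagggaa
Bad, brighter, A_52_P614762, mm8 chr19:7018148-7018207, minus strand: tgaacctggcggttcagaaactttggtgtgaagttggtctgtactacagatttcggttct
Bad, RefSeq mRNA, A_51_P419364, mm8 chr19:7009172-7009231, plus strand: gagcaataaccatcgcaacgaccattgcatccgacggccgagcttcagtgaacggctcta

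**Figure D3:**
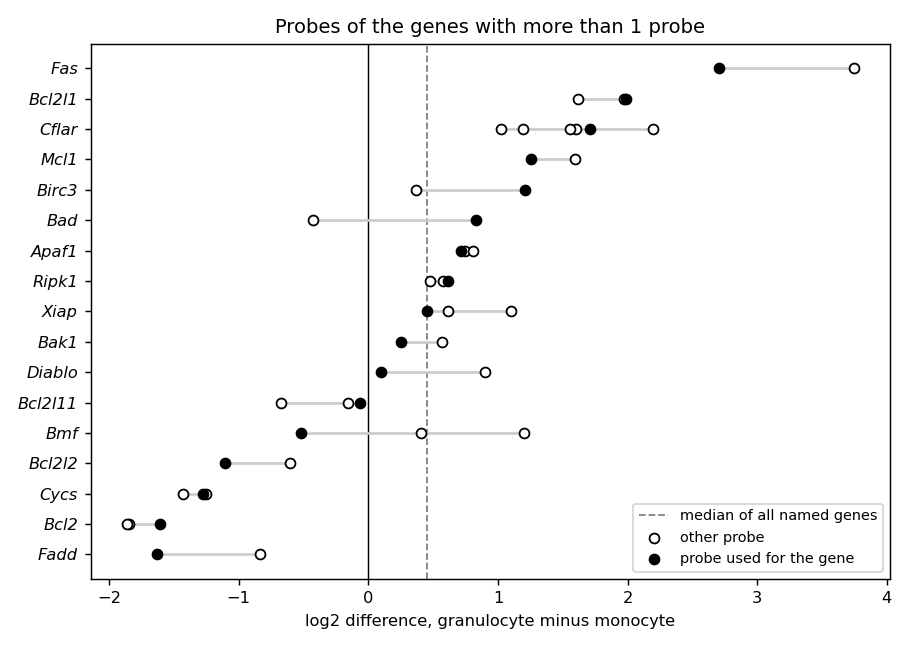
Log2 difference, granulocyte minus monocyte, of every probe for the 17 members with more than 1 probe, with filled points for the probe that represents the gene and open points for the others. The dashed line is the median of all named genes. Bad and Bmf are the rows that cross 0, while the probes of Bcl2, Cycs and Apaf1 lie close together. The open Bcl2l2 point at -0.60 is a bound.

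The 17 members with several probes had 46 of the 64 probes, and in 15 of them all probes had the same sign. The gap between the lowest and the highest probe had a median of 0.61. Of the 22 members at least 2-fold apart with the scaling used, 9 had several probes. In 6 of these every probe passed 2-fold in the same direction with that scaling. They were Bcl2, Bcl2l1, Mcl1, Cycs, Fas and Cflar. For Birc3 the second probe gave 0.37 against 1.21, and for Fadd it gave -0.83 against -1.63. The other 13 calls rest on 1 probe each.

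The 4 apoptotic caspases among the members lay on both sides. Casp6, an executioner, and Casp8, the initiator at death receptors, were lower in granulocytes, while Casp9, the initiator of the apoptosome, was above 0 with every setting. Casp6 had a relative signal of 1.66 in granulocytes and 7.14 in monocytes, a difference of -2.10 or 4.29-fold. Casp8 had 4.39 in granulocytes and 9.91 in monocytes (-1.18), with -2.05 without scaling. Casp2, an initiator linked to stress and chromosome number, had 16.2 in granulocytes and 28.8 in monocytes (-0.83, and -1.28 after centring). Casp9 had 9.24 in granulocytes and 4.18 in monocytes (1.15), and 0.27 without scaling. The Casp6 probe, the only one for this gene, is:
Casp6, A_51_P215922, mm8 chr3:129905557-129905616, plus strand: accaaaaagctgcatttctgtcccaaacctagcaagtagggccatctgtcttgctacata

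Inflammatory caspases, of which Casp1 and Casp4 act in pyroptosis and cytokine release, were at least 2-fold higher in granulocytes for 2 of 3 with the scaling used. This compares with 29.8% of all named genes. Without scaling it was 0 of 3, against 9.88% of all named genes. Casp4, called caspase 11 in mouse work, senses cytosolic lipopolysaccharide and had a relative signal of 28.3 in granulocytes and 13.9 in monocytes (1.03). Casp12 had 0.173 in granulocytes and 0.0724 in monocytes (1.26). Casp1, the protease that matures interleukin 1 beta, had 20.03 in granulocytes and 15.1 in monocytes, a difference of 0.40 that was -0.47 without scaling. Without scaling Casp4 and Casp12 gave 0.16 and 0.38.

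Of the apoptosome partners cytochrome c and Apaf1, the first was lower in granulocytes under every setting and Apaf1 had no stable sign. Cycs, the cytochrome c gene, had a relative signal of 15.1 in granulocytes and 36.6 in monocytes, a difference of -1.28. Its other probes gave -1.25 and -1.43, but they share 40 of their 60 bases and are not separate readings, and both list further predicted RefSeq transcripts. Apaf1 had 6.88 in granulocytes and 4.19 in monocytes (0.71), with 0.75 and 0.81 by its other probes and -0.16 without scaling. Endog, a mitochondrial nuclease, had 0.249 in granulocytes and 0.679 in monocytes (-1.45). Diablo, whose product Smac blocks the IAPs, had 2.71 in granulocytes and 2.53 in monocytes, a difference of 0.10 that was -0.77 without scaling, and its other probe gave 0.90. Capitals mark the bases that the overlapping Cycs probes share:
Cycs, A_51_P261671, mm8 chr6:50494129-50494188, minus strand: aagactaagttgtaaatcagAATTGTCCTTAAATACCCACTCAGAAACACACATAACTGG
Cycs, A_52_P82247, mm8 chr6:50494109-50494168, minus strand: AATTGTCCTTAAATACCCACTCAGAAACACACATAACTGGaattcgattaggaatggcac

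The IAPs, which restrain caspases and carry ubiquitin signals at the TNF receptor, were above 0 with the scaling used, and Xiap turned negative without it. Birc3 had a relative signal of 18.5 in granulocytes and 7.99 in monocytes (1.21), and Birc2 had 5.55 in granulocytes and 2.45 in monocytes (1.18). Without scaling they gave 0.34 and 0.31. The second Birc3 probe, at 0.37 with the scaling used, falls below 0 without it. Xiap, the direct caspase inhibitor, had 0.842 in granulocytes and 0.616 in monocytes, a difference of 0.45 by its brightest probe, which equalled the median of all named genes. Its other probes gave 0.62 and, for the one on the RefSeq mRNA, 1.102.

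**Figure D4:**
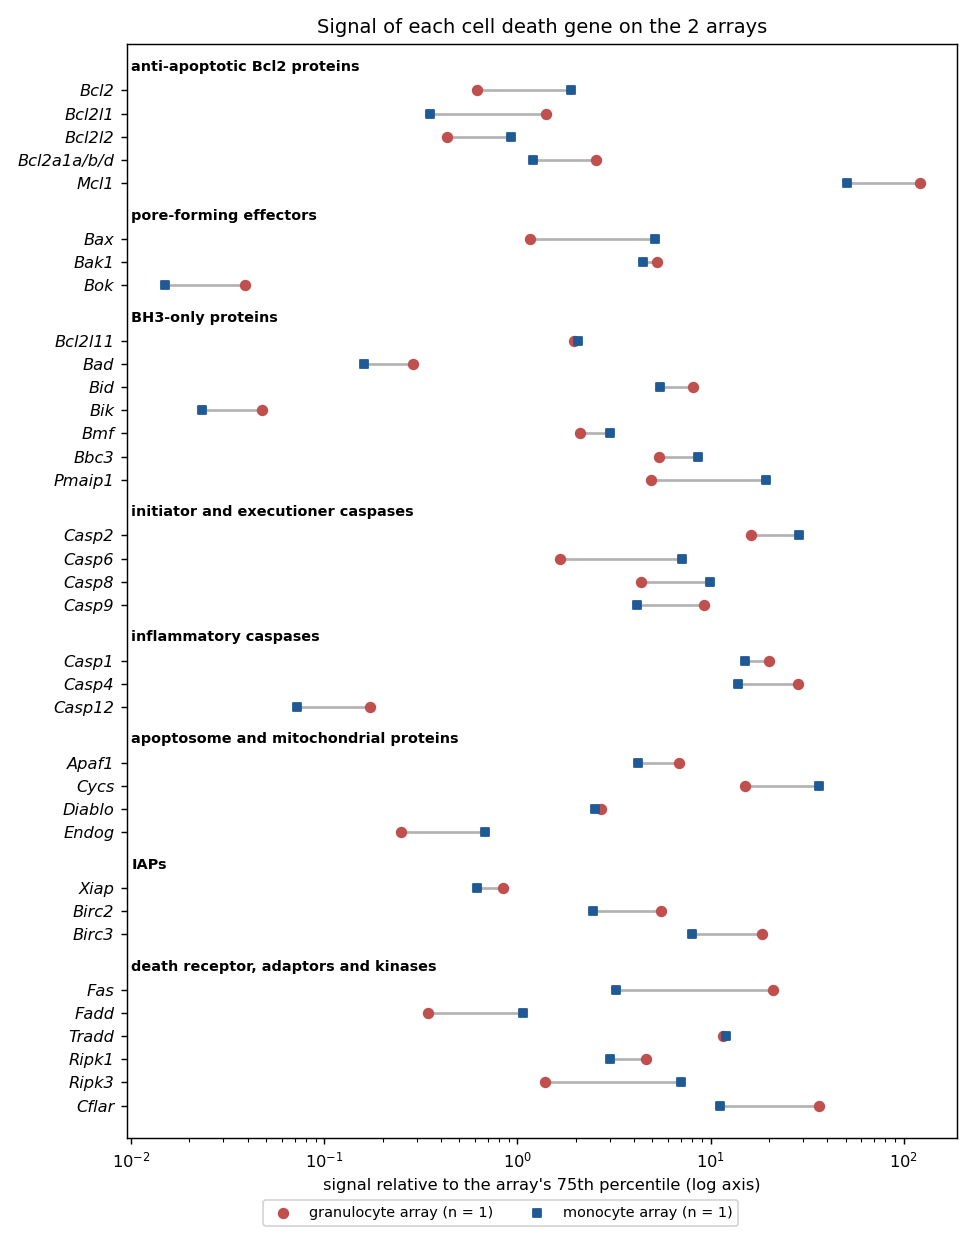
Relative signal, the signal divided by the array's 75th percentile, of each member on a log axis, with circles for granulocytes and squares for monocytes (1 array each). Brightness depends on the probe, so only the distance within a row is a comparison between the cell types. The widest gaps are those of Fas, to the granulocyte side, and of Ripk3, Bax and Casp6, to the monocyte side.

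The death receptor pathway held both ends of the list. Fas, the receptor, was 6.52-fold higher in granulocytes, and Ripk3, the kinase of necroptosis, was 5.05-fold higher in monocytes. Fas had a relative signal of 21.1 in granulocytes and 3.24 in monocytes, a difference of 2.70, above 95.7% of all named genes. Its 10 spots ran from 19.96 to 22.6 in granulocytes and from 3.13 to 3.44 in monocytes. A second Fas probe, on another cDNA of the locus, gave 1.81 in granulocytes and 0.135 in monocytes (3.74). Over all settings the Fas difference lay between 1.83 and 3.22. Ripk3 had 1.39 in granulocytes and 7.03 in monocytes, a difference of -2.34, below all but 8.1% of named genes, and its single probe gave between -3.21 and -2.29 over the settings. The probes of these extremes are:
Fas mRNA, A_51_P345393, mm8 chr19:34393409-34393468, plus strand: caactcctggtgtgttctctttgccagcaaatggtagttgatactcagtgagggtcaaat
Fas, other cDNA, A_52_P73385, mm8 chr19:34375240-34375299, plus strand: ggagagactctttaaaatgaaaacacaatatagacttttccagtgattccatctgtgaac
Ripk3, A_51_P491987, mm8 chr14:54739183-54739242, minus strand: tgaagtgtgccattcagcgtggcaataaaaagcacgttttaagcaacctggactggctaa

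Fadd, the adaptor between Fas and caspase 8, had a relative signal of 0.344 in granulocytes and 1.06 in monocytes, a difference of -1.63. Tradd, the adaptor of TNF receptor 1, had 11.7 in granulocytes and 12.1 in monocytes (-0.05, and -0.92 without scaling). Ripk1, the kinase shared by survival and death signals, had 4.64 in granulocytes and 3.02 in monocytes, a difference of 0.62 that was -0.25 without scaling, with 0.58 and 0.47 by its other probes.

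Cflar encodes cFLIP, the caspase 8 homologue that blocks Fas signalling, and it was read by 6 probes. The brightest had a relative signal of 36.5 in granulocytes and 11.1 in monocytes, a difference of 1.71. The remaining probes gave between 1.02 and 2.19, so with the scaling used all 6 passed 2-fold toward granulocytes. Without scaling the difference was 0.84. A pair of probes shares 36 bases, marked in capitals, and counts as a single reading of that stretch:
Cflar, A_52_P226929, mm8 chr1:58698818-58698877, plus strand: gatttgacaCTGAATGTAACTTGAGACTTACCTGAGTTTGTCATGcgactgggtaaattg
Cflar, A_52_P624648, mm8 chr1:58698798-58698862, plus strand: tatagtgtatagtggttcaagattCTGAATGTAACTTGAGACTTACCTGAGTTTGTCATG

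Other genes of cell death, listed by role, were read beside the members. Of 70 such genes 65 gave a value, with 11 (16.9%) at least 2-fold higher in granulocytes, against 29.8% of all named genes, and 17 (26.2%) at least 2-fold higher in monocytes, against 21.4%. Without scaling these counts were 3 (4.62%) for granulocytes, against 9.88% of all named genes, and 30 (46.2%) for monocytes, against 35.3%. Their median was 0.01, against 0.45 for all named genes. Gsdme, a gasdermin whose cleaved form makes membrane pores, had a relative signal of 141 in granulocytes and 8.48 in monocytes, a difference of 4.05, or 3.22 with the mean over its probes. Dedd2, a death effector domain gene, had 66.8 in granulocytes and 14.1 in monocytes (2.24). These were the 2 genes at least 4-fold higher in granulocytes, 3.08% of the 65 against 8.75% of all named genes. Without scaling only Gsdme passed, 1.54% of the 65 against 3.72% of all named genes, with Dedd2 at 1.37.

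At least 4-fold higher in monocytes were 7 genes of the same list, 10.8% against 10.6% of all named genes. Without scaling there were 14, which is 21.5% against 19.3% of all named genes. Bag3, a co-chaperone, had 0.155 in granulocytes and 2.68 in monocytes (-4.11), but -2.33 with the mean over its probes. Nlrc4, an inflammasome sensor upstream of caspase 1, had 0.0490 in granulocytes and 0.623 in monocytes (-3.67), but -1.75 after normexp correction, which is under 4-fold. Tnfaip3, whose product A20 edits ubiquitin at the TNF receptor, had 2.44 in granulocytes and 24.9 in monocytes (-3.35). Pea15a (-3.11), a death effector domain gene, Faim (-2.72), an inhibitor of Fas-induced death, Mlkl (-2.52), the pore former that Ripk3 activates, and Parp1 (4.01-fold), a caspase substrate, completed the 7. Mlkl had 0.854 in granulocytes and 4.90 in monocytes, on the same side as Ripk3. With the mean over its probes Pea15a was -2.15. Parp1 was -1.89 after normexp correction, also under 4-fold. Tnfsf10, the ligand gene known as TRAIL, was not well above background in granulocytes and was at least 3.16-fold higher in monocytes, though the bound was -0.10 after normexp correction.

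**Figure D5:**
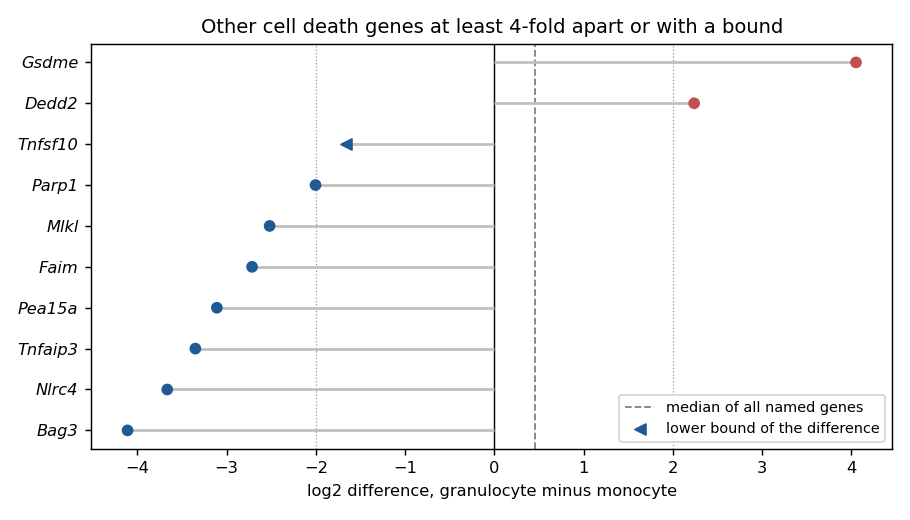
Log2 difference, granulocyte minus monocyte, of the other cell death genes at least 4-fold apart or with a lower bound, with red points higher in granulocytes, blue points higher in monocytes and a triangle for a lower bound. Dotted lines mark 4-fold and the dashed line the median of all named genes. Gsdme stands at 4.05 and Bag3 at -4.11.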

How the data were processed

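One-colour Agilent arrays were read for 1 granulocyte and 1 monocyte sample. The deposited scanner files hold intensity values, and per the file headers Agilent Feature Extraction 10.5.1.1 had subtracted the background and removed spatial trends, with probe positions in mm8. The authors' deposited value table is on a log2 scale and is the log2 of the processed signal with -0.24 added for granulocytes and -0.92 added for monocytes, by a rule that the sources used here do not state. Of 43379 gene spots per array, 143 (granulocytes) and 103 (monocytes) had outlier flags and were dropped, and 0 were saturated. The log2 signal was set relative to each array's 75th percentile and spots of a probe were averaged. On each array 63.8% (granulocytes) and 68.1% (monocytes) of the probes were well above background, and repeated spots had a median SD of 0.11 and 0.09 on the log2 scale. The number of arrays limits the precision.

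Genes other than the members were named by RefSeq accession (GRCm38.p6), else by symbol. The probe above background on most arrays, then the brightest, stood for a gene. A gene above background on 1 array only was given a lower bound against the dim array's lowest signal above background, or the probe's own signal where that was higher. Calls are by size, at least 2-fold or 4-fold. The members and lists were chosen with earlier results of these data known. Every member is named, with other pathway genes at 4-fold or with a bound. Alternatives were other scalings, normexp with limma 3.58.1 (offset 50), the deposited table, the mean over probes and a filter on dim genes. Centring on the median of all genes was chosen after seeing the data. The steps were tested on simulated data.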

Additional observations from a re-analysis of the deposited data

How the results depend on the processing

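With 1 array per cell type, other settings show what processing changes, not how mice vary. The count of members at least 2-fold higher in granulocytes, 12, was 2 without scaling, 5 with quantile normalisation, 7 with normexp correction, 7 in the authors' value table and 3 after centring on all genes. The share of all named genes was 29.8%, and 9.88% without scaling, 21.9% with quantile normalisation and 20.8% with normexp correction. It was 23.1% in the authors' value table and 16.7% after centring. At 4-fold the 1 gene was lost without scaling (0), and the 3 genes higher in monocytes became 9 without scaling and 6 after centring. As shares these were 8.57%, 25.7% and 17.1% of the members, against 10.6%, 19.3% and 14.9% of all named genes. Counts of the other pathway genes at 2-fold became 3 (granulocytes) and 30 (monocytes) without scaling, against 9.88% and 35.3% of all named genes. After centring the granulocyte count was 7 (10.8%), against 16.7%. Medians relative to that of all genes moved for the effectors (-0.20, and -1.42 without the bound of Bok), BH3-only genes (-0.52, and -0.24 with the mean over probes), inflammatory caspases (0.58, and 0.28 with quantile normalisation) and IAPs (0.73, and 0.35 with the mean over probes). None of the 22 members at least 2-fold apart changed direction under the 8 alternatives, by the probe that represents the gene or the mean over probes. Scalings that add 1 constant could not reverse them, since the largest shift was -0.87. No paired analysis was possible because each group has 1 sample. Dim probes such as those of Bok, Bik and Casp12 are limited by the signal over background.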

Other observations

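The ratio of 2 members on the same array is free of any scaling that adds a constant, and the pairs below were chosen after their values were seen. On the log2 scale, granulocyte minus monocyte, the ratio of Bcl2l1 to Bcl2 was 12.1-fold higher in granulocytes and that of Mcl1 to Bcl2 differed by 2.86 (7.27-fold). The ratio of Bak1 to Bax differed by 2.40, and with quantile normalisation by 2.26. In the receptor route, Fas to Fadd differed by 4.33 (20.2-fold) and Cflar to Casp8 by 2.89. All ratios use the probe that represents each gene. The second Fadd probe (-0.83 against -1.63) would make the Fas to Fadd ratio smaller, and the second Fas probe (3.74 against 2.70) larger. Casp9 to Casp8 differed by 2.32 and Ripk1 to Ripk3 by 2.95, with 2.84 after normexp correction. Such ratios show unequal change and do not say that either gene stayed the same.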
